A study of Mus musculus with 6 samples.

Results

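The 10 genes described here, Igf1, Igf1r, Insr, Irs1, Irs2, Igfbp2, Igfbp3, Igfbp4, Igfbp5 and Igfbp7, make up the core of the insulin-like growth factor (IGF) axis and the insulin receptor arm in mammary cells. They were chosen by name, with earlier results of these data known, as 10 of the 54418 genes in the count table. All 10 passed the filter on low counts that left 21236 genes to be tested. Igf1 encodes a secreted growth factor, and Igf1r and Insr encode related receptor tyrosine kinases. Irs1 and Irs2 encode docking proteins that the active receptors phosphorylate, and the Igfbp genes encode secreted proteins that bind IGF and hold it in the circulation, the matrix or near the receptor. When the receptors are active, the docking proteins recruit PI3-kinase, AKT is switched on, and AKT keeps FOXO transcription factors out of the nucleus. In the pubertal mammary gland, IGF1 made largely by the stroma under the control of growth hormone is known to be needed for the growth of the ducts.

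Gene expression was measured by RNA sequencing of mammary epithelial cells sorted by flow cytometry from dissociated mammary glands of 4-week-old C57BL/6 females. The mice carried either wild-type Glis2 (WT, n = 3) or a germline knockout of Glis2 (Glis2 KO, n = 3), the gene of a Krüppel-like zinc finger transcription factor. The question was which transcripts differ when the factor is lost. Cells had been stained for the blood and vessel antigens TER-119, CD45 and CD31 as well as for CD24 and CD49f. The knockout was present in every tissue of the animal and not only in the mammary epithelium. Each library came from 1 mouse, and libraries are named below by genotype and replicate number.

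Total counts lay between 24996524 and 31393917 per library, and the biological coefficient of variation common to all genes was 37.4%. Glis2 itself had 671, 663 and 510 counts in WT replicates 1 to 3 and 252, 509 and 510 counts in Glis2 KO replicates 1 to 3. Scaled to library size as CPM by the TMM method, the KO values of 10.1, 17.0 and 16.3 all lay below the WT values of 21.8, 23.2 and 19.6. The log2 fold change was -0.57 (SE 0.22) with an adjusted p of 0.906 by edgeR's quasi-likelihood test with Benjamini-Hochberg adjustment. Scaled by transcript length, the mean of Glis2 was 28.8 protein-coding TPM in WT and 30.4 in KO cells. Transcript reads of the targeted gene were thus present in every KO library, and the sources used here do not say which exons the allele removes. Summed markers of luminal epithelium (Krt8, Krt18, Krt19, Epcam and Cldn3) reached 3146 to 5218 CPM and those of basal epithelium 4398 to 7220 CPM. Fibroblast markers summed to between 2314 and 7790 CPM in the same libraries, mostly from the collagen genes Col3a1, Col1a1 and Col1a2. Col3a1 averaged 2904 CPM in WT and 2124 CPM in KO cells, against 50.2 and 53.1 CPM for Pdgfra. None of the 12 marker lists held a gene at 0 in all 6 libraries. In such bulk samples, fewer cells of a type and less RNA per cell cannot be told apart.

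Of the 10 genes, the 5 for binding proteins had the highest mean levels, and Igfbp5 stood above all the others in every library. Levels were compared between genes per transcript length, as TPM rescaled to the sum of protein-coding genes. This was done because a single small noncoding RNA gene, Gm23935, took 83.0% to 85.7% of the deposited TPM of a library. On this scale the mean level over 6 libraries was 968 for Igfbp5 (range 807 to 1138), 392 for Igfbp4 (211 to 553), 259 for Igfbp7 (106 to 405), 240 for Igfbp2 (179 to 338) and 91.7 for Igfbp3 (72.7 to 115). Signalling genes followed, with 88.9 for Irs2 (71.3 to 105), 68.1 for Igf1r (61.4 to 76.0), 34.3 for Insr (22.7 to 50.6), 20.01 for Igf1 (5.87 to 39.5) and 19.2 for Irs1 (15.2 to 23.8). The ranges over the libraries did not overlap at 3 places in this order, namely between Igfbp5 and Igfbp4, between Igfbp2 and Igfbp3 and between Igf1r and Insr. Every other pair of neighbours overlapped, although Igfbp4 was above Igfbp7 in 6 of 6 libraries and Irs2 above Igf1r in 5 of 6. Igfbp3 was above Irs2 in 4 of 6. Igfbp7 and Igfbp2 swapped places between libraries, as did Igf1 and Irs1, whose levels differed by less than their spread. Igfbp6, a binding protein gene outside the 10, averaged 47.0 on the same scale, below Irs2 and Igf1r.

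The promoters of these genes were of very different base composition. RefSeq windows of the GRCm38.p6 assembly, each 250 bases before the start of transcription, were matched for 9 of the 10 genes, in 10 windows. The Igf1r window held 42 CpG dinucleotides, a number that 0.865% of all 32851 windows reach, followed by Irs2 with 34, Igfbp3 with 32, Irs1 with 28, Igfbp7 with 26 and Igfbp4 with 22. Igfbp2 had 14 and 11 in its 2 windows, Igfbp5 had 10, and Igf1 had 5, against a median of 6 over all windows. Igfbp5, the gene with the highest level, was thus somewhat above that median, and Igf1r had the most CpG of these genes. The 120 bases from position -150 to -31 before the start are printed 5′ to 3′ on the strand of the gene, with each CpG in capitals. They are shown for Igf1r (chr7:67952107-67952226, plus strand), for Igfbp5 (chr1:72874896-72875015, minus strand) and for Igfbp7 (chr5:77408076-77408195, minus strand), whose level varied widely between mice.
Igf1r: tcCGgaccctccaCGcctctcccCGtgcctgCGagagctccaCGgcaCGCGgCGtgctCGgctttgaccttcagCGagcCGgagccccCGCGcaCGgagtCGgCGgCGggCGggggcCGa
Igfbp5: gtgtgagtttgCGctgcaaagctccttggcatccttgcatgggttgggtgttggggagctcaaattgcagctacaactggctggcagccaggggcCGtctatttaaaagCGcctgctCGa
Igfbp7: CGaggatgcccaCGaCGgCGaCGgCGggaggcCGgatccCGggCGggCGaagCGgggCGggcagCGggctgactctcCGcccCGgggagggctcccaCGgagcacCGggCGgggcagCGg
In these stretches of equal length, Igf1r and Igfbp7 each had 19 CpG and Igfbp5 had 4.

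Since the deleted gene encodes a GLI-similar factor, the windows were searched on both strands for GACCACCCA, the GLI core, and for TGGGGGGT, the G-rich GLIS core. The GLI core was found in 0 of the 10 windows, and it was present in 0.225% of all windows. The G-rich core was found in 1 window, that of Igfbp3, against 1.36% of all windows. It lay on the opposite strand with its first base 79 bases before the start, and it is shown in capitals in the 60 bases around it (chr11:7213969-7214028, minus strand, GRCm38.p6).
Igfbp3: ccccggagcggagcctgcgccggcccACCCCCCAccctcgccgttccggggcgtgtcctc
A match of these letters is a description of the sequence only, and binding of the factor was not measured in these samples. The Igfbp3 transcript had 2997, 2146 and 2607 counts in WT and 2215, 2549 and 3655 counts in Glis2 KO replicates 1 to 3. The means were 90.8 ± 13.6 CPM in WT and 96.8 ± 17.4 CPM in KO cells (SD, n = 3 each), and the genotypes overlapped.

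No gene of the axis was called different between Glis2 KO and WT cells, where a call needed an adjusted p of 0.05 or less together with a log2 fold change of 0.58 or more in either direction. By edgeR's quasi-likelihood test, 0 of the 10 were called, against 0 of 21236 genes (0%). An unadjusted p under 0.05 was found for 0 of the 10, against 1130 genes (5.32%), and the smallest adjusted p among the 10 was 0.906. DESeq2 with apeglm shrinkage, the procedure of the study's methods, likewise called 0 of the 10, against 45 of 27248 genes (0.165%). Of the 10 log2 fold changes, 6 were positive and 4 negative, with a median of 0.05 beside 0.01 over all genes tested. The precision differed greatly between genes. The 95% interval lay inside the fold threshold on both sides for 6 of the 10 (Igf1r, Insr, Irs1, Irs2, Igfbp3 and Igfbp5), and reached past it for Igf1, Igfbp2, Igfbp4 and Igfbp7.

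**Figure D1:**
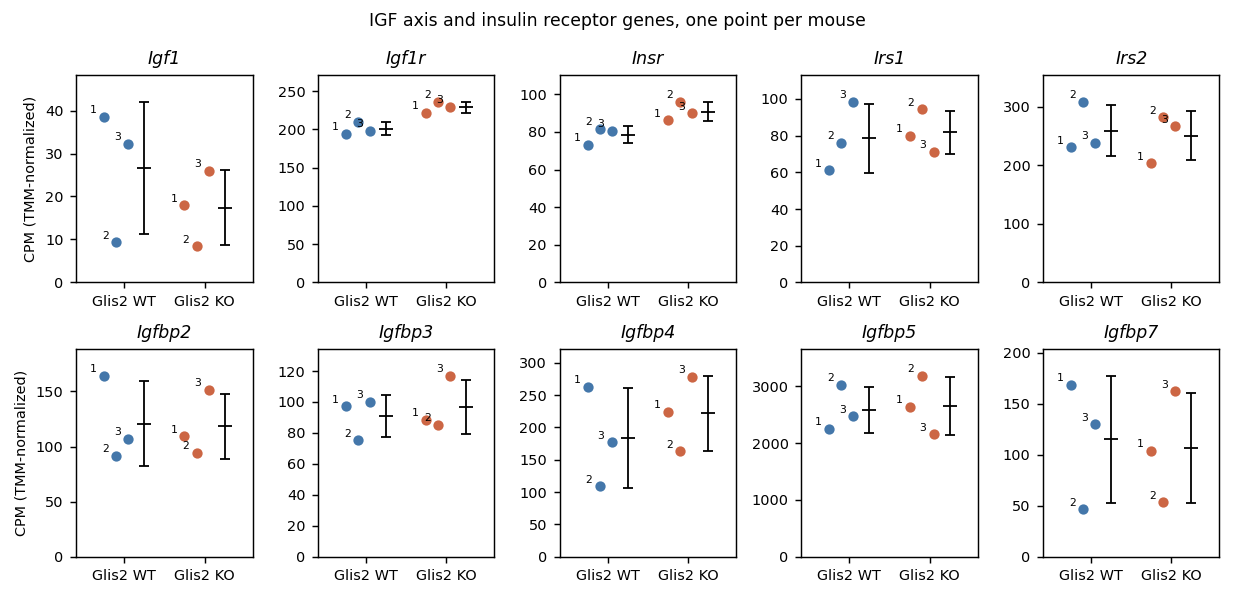
TMM-normalized CPM of each of the 10 genes (vertical axes, linear and starting at 0) in the 3 WT and 3 Glis2 KO libraries, 1 point per mouse marked with its replicate number, and beside the points the mean with 1 SD. Igf1r and Insr alone show no overlap between genotypes in CPM (they overlap in TPM), while for Igf1, Igfbp2, Igfbp3, Igfbp4 and Igfbp7 the points numbered 2 are the lowest pair.

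Igf1 (ENSMUSG00000020053, chr10:87858265-87937042, plus strand, mm10), the growth factor itself, had 38.6, 9.38 and 32.2 CPM in WT replicates 1 to 3 and 18.0, 8.38 and 25.9 CPM in Glis2 KO replicates 1 to 3. The replicates numbered 2 were the lowest of each genotype, and both were below every other library, so the genotypes overlapped. The means were 26.7 ± 15.4 and 17.4 ± 8.80 CPM (SD, n = 3 each). The log2 fold change of -0.62 had an SE of 0.53 and a 95% interval from -1.82 to 0.59. It was the widest interval of the 10 genes and reached past the fold threshold on both sides (edgeR adjusted p = 0.941). The estimate rested on single mice, at -0.27 without WT replicate 1, -0.28 without KO replicate 2, -1.02 without WT replicate 2 and -1.04 without KO replicate 3. The spread of Igf1 between mice was 4.6-fold from lowest to highest, on 251 to 1190 counts.

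In CPM the receptor genes had the smallest spread of the axis and were the only ones without overlap between the genotypes, whereas in TPM Insr spread more widely and neither separated them. Igf1r (ENSMUSG00000005533, chr7:67952827-68233668, plus strand) had 193.9, 210.3 and 197.9 CPM in WT and 222.0, 236.2 and 229.2 CPM in Glis2 KO cells, so that in CPM every KO library lay above every WT library. The means were 201 ± 8.53 and 229 ± 7.10 CPM (SD, n = 3 each), a log2 fold change of 0.19 (SE 0.09, 95% interval -0.01 to 0.39) with an edgeR adjusted p of 0.906. Insr (ENSMUSG00000005534, chr8:3122061-3279617, minus strand) had 73.2, 81.5 and 80.6 CPM in WT and 86.2, 96.1 and 89.8 CPM in Glis2 KO cells, again with every KO library above every WT library in CPM but not in TPM. Its log2 fold change was 0.21 (SE 0.10, 95% interval -0.02 to 0.44), with an edgeR adjusted p of 0.906. The libraries fell in the same order for both receptors, from WT replicate 1, the lowest, through WT replicates 3 and 2 and KO replicates 1 and 3 to KO replicate 2. Separation of this kind was found for 2 of the 10 genes, and for 11.7% of all genes tested.

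The separation of the receptors depended on the scale. As length-scaled protein-coding TPM, Igf1r averaged 65.6 ± 1.99 in WT and 70.6 ± 8.01 in KO cells and Insr 34.1 ± 8.52 and 34.6 ± 14.4 (SD, n = 3 each), and the genotypes overlapped for both. Dividing counts by TPM gives the transcript length that Salmon assigned to a gene in each library, relative to its mean. For Insr this relative length was 0.90, 0.72 and 1.23 in WT and 1.49, 0.72 and 1.17 in KO replicates 1 to 3, a 2.08-fold span that was larger in 6.66% of 10796 genes. For Igf1r the span was 1.25-fold, and for Irs1, Irs2, Igfbp5 and Igfbp7 it was 1.00-fold. Whether the mixture of Insr transcript forms truly differed between mice was not tested. Beside the receptors, the summed basal markers also separated the genotypes, with 5580, 5185 and 4398 CPM in WT and 6264, 5986 and 7220 CPM in Glis2 KO libraries. All 10 of 10 basal markers had a positive log2 fold change (median 0.42), as did 10961 of the 21236 genes tested. Of the 10, 6 had an unadjusted edgeR p under 0.05, against 2.99% of all genes tested in the same direction. EdgeR and DESeq2 called 0 of the 10, though Tagln had a DESeq2 adjusted p of 0.0306 at a log2 fold change of 0.579. The summed lymphocyte markers, at a far lower level, separated them too, with 4.06 to 7.94 CPM in WT and 13.8 to 23.8 CPM in KO libraries. The part of these cells in the receptor values was not tested.

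Because insulin and IGF1 receptors form hybrids, their relative level in a library was compared. Insr was below Igf1r in all 6 libraries, at 0.49, 0.67 and 0.40 times its level in WT replicates 1 to 3 and at 0.30, 0.82 and 0.40 times in KO replicates 1 to 3. The mean log2 ratio was -0.97 ± 0.37 in WT and -1.10 ± 0.74 in KO cells (SD, n = 3 each), a difference of -0.13. A two-sided exact permutation test gave p = 0.900, where its smallest possible p is 0.100. With counts in place of TPM the difference turned to 0.018, and leaving out 1 mouse moved it between -0.54 and 0.18. Irs2 exceeded Irs1 in all 6 libraries by 3.53- to 5.92-fold, with mean log2 ratios of 2.28 ± 0.40 in WT and 2.16 ± 0.28 in KO cells (exact permutation p = 0.700, n = 3 each). Neither ratio could reach a p under 0.05 in a design of this size.

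The docking protein genes did not separate the genotypes. Irs1 (ENSMUSG00000055980, chr1:82233101-82291416, minus strand) had 61.0, 76.1 and 98.6 CPM in WT and 80.0, 94.5 and 71.3 CPM in Glis2 KO replicates 1 to 3. It had a log2 fold change of 0.06 (SE 0.18, 95% interval -0.36 to 0.48, edgeR adjusted p = 0.985). Both the lowest and the highest library were WT. Irs2 (ENSMUSG00000038894, chr8:10984681-11008458, minus strand), itself a FOXO-responsive gene in liver, had 230.7, 308.5 and 238.6 CPM in WT and 203.6, 282.1 and 266.4 CPM in KO replicates 1 to 3. Its log2 fold change was -0.05 (SE 0.16, 95% interval -0.41 to 0.31, edgeR adjusted p = 0.985). Here the lowest library was KO replicate 1 and the highest WT replicate 2.

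Among the binding proteins, Igfbp5 was set apart by its level. Igfbp5 (ENSMUSG00000026185, chr1:72857932-72874884, minus strand), whose product binds matrix and is known for its induction in the involuting gland, had 2253, 3026 and 2475 CPM in WT and 2636, 3184 and 2155 CPM in Glis2 KO replicates 1 to 3, on 64489 to 95374 counts. The genotypes overlapped over most of their range, with means of 2585 ± 398 and 2659 ± 515 CPM (SD, n = 3 each). It had a log2 fold change of 0.04 (SE 0.16, 95% interval -0.32 to 0.40, edgeR adjusted p = 0.989). Its neighbour Igfbp2 (ENSMUSG00000039323, chr1:72824503-72852474, plus strand), which lies in the opposite orientation on the same stretch of chromosome 1, had 164.1, 91.4 and 106.9 CPM in WT and 109.3, 94.1 and 151.5 CPM in KO replicates 1 to 3. The log2 fold change of Igfbp2 was -0.03 (SE 0.24, 95% interval -0.58 to 0.52, edgeR adjusted p = 0.997). The libraries numbered 2 were at the bottom for Igfbp2 and at the top for Igfbp5.

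Igfbp3 (ENSMUSG00000020427, chr11:7206086-7213923, minus strand), the main carrier of IGF in serum, had a log2 fold change of 0.09 (SE 0.16, 95% interval -0.28 to 0.46, edgeR adjusted p = 0.977). Igfbp4 (ENSMUSG00000017493, chr11:99041244-99054392, plus strand), a binding protein that the protease PAPP-A cleaves to free IGF, had 263.2, 108.8 and 177.2 CPM in WT and 224.0, 163.2 and 278.7 CPM in Glis2 KO replicates 1 to 3. WT replicate 2 was the lowest and KO replicate 3 the highest. The log2 fold change of 0.28 had an SE of 0.30 and a 95% interval from -0.42 to 0.97 (edgeR adjusted p = 0.959). It was 0.013 without WT replicate 2, 0.065 without KO replicate 3, 0.45 without KO replicate 2 and 0.62 without WT replicate 1. Igfbp7 (ENSMUSG00000036256, chr5:77349240-77408041, minus strand), a relative with low affinity for IGF and a known product of blood vessels, had 168.2, 46.7 and 129.9 CPM in WT and 103.9, 53.5 and 161.9 CPM in KO replicates 1 to 3. Within each genotype its lowest mouse was replicate 2, and its log2 fold change of -0.11 (SE 0.48, 95% interval -1.22 to 0.99, edgeR adjusted p = 0.991) was a small number beside a 3.6-fold spread between mice. The sign turned without WT replicate 1 (0.26) or without KO replicate 2 (0.21).

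**Figure D2:**
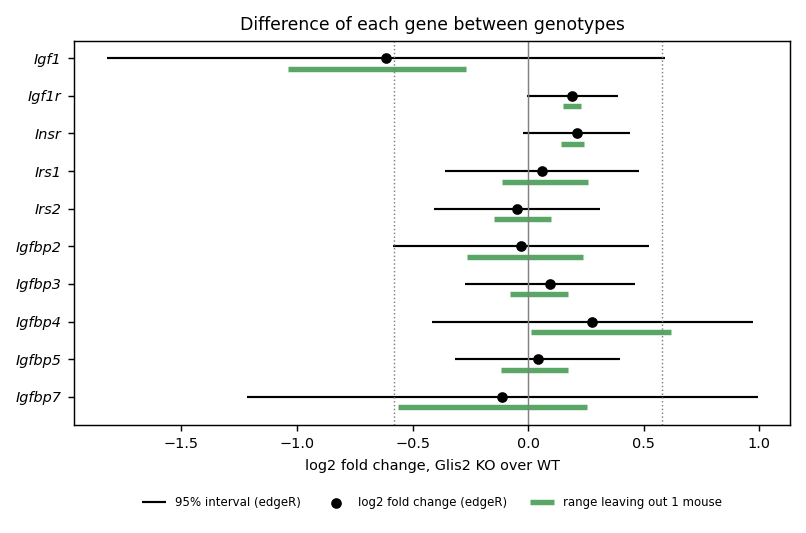
Log2 fold change of Glis2 KO over WT for each gene (horizontal axis) with its 95% interval from edgeR (black) and the range of the estimate when 1 mouse at a time is left out (green); dotted lines mark the fold threshold of 0.58 on either side. The intervals of Igf1 and Igfbp7 are the widest, those of Igf1r and Insr the narrowest, and every interval includes 0.

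The make-up of the summed transcripts of the 5 Igfbp genes, which leaves out Igfbp6, varied between mice of the same genotype. Of the summed TPM of the 5 Igfbp genes, Igfbp5 held 38.3%, 65.7% and 50.0% in WT and 49.8%, 62.5% and 37.6% in Glis2 KO replicates 1 to 3. Igfbp7 held 17.9%, 6.37% and 16.4% in WT and 12.3%, 6.58% and 17.7% in KO replicates 1 to 3. These shares ran in opposite directions, but they add up to a whole, so a larger Igfbp5 share leaves less for the others. The replicates numbered 2 had the largest share of Igfbp5 and the smallest of Igfbp7 in both genotypes. Igfbp4 held 12.7% to 25.2% and Igfbp2 9.99% to 14.9%, both lowest in a replicate numbered 2, and Igfbp3 held 4.35% to 5.35%. The summed level of the 5 genes itself varied less, between 1660 and 2262 protein-coding TPM.

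**Figure D3:**
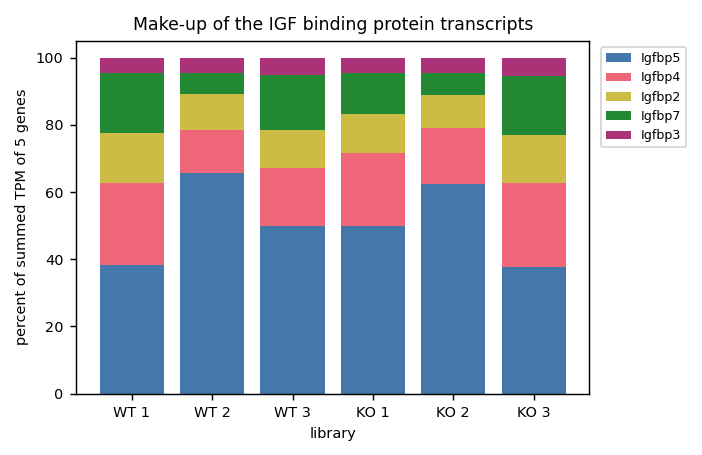
Share of each Igfbp gene in the summed TPM of the 5 genes (vertical axis, percent) in the 6 libraries, stacked from Igfbp5 at the bottom to Igfbp3 at the top. Igfbp5 fills 65.7% of WT replicate 2 and 62.5% of Glis2 KO replicate 2, against 37.6% to 50.0% in the other 4 libraries.

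The order of the libraries for these genes was set beside that for the summed markers of cell types, a pairing chosen after the values were seen. For 5 of the 10 genes (Igf1, Igfbp2, Igfbp3, Igfbp4 and Igfbp7) the libraries numbered 2 were the lowest pair, as they were for 5 of 12 marker lists (fibroblast, adipocyte, of whose sum Fabp4 made up most, endothelial, pericyte and macrophage, the last with 19.1 to 40.0 CPM). For Igfbp5 and Irs2 the same libraries were the highest pair, as they were for the pan-luminal and luminal progenitor markers (the latter 392 to 1598 CPM). How many of all genes tested had these libraries lowest or highest was not counted. The 9 fibroblast markers summed to 7417, 2314 and 7790 CPM in WT and 4310, 2624 and 5939 CPM in Glis2 KO replicates 1 to 3. Most of this sum came from collagen genes. The 8 endothelial markers summed to 767, 143 and 540 CPM in WT and 497, 227 and 817 CPM in KO replicates 1 to 3. The 5 pan-luminal markers ran the other way, with 3146, 5180 and 4179 CPM in WT and 4386, 5218 and 3206 CPM in KO replicates 1 to 3. Libraries ranked by Igf1 fell in the order of the 7 pericyte markers (334 to 634 CPM). Hormone-sensing luminal markers (1078 to 2066 CPM) shared with Irs1 its lowest pair, WT replicate 1 and KO replicate 3. The same pair was lowest for the pan-luminal and luminal progenitor markers and for Igfbp5. How much of each gene's spread came from these cells was not tested. With both libraries numbered 2 left out, an alternative added after seeing the data, the log2 fold changes were -0.69 for Igf1, 0.19 for Igfbp4 and -0.17 for Igfbp7, and 0 of the 10 genes were called by edgeR.

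**Figure D4:**
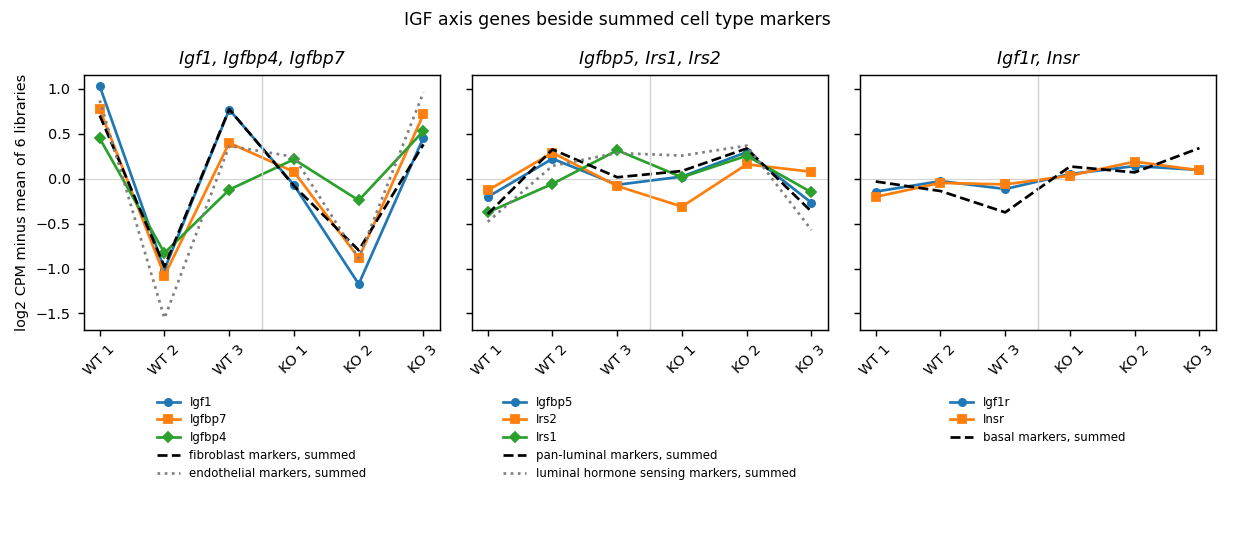
Log2 CPM of IGF axis genes (coloured) and of summed cell type markers (black dashed and grey dotted), each minus its mean over the 6 libraries, along the WT and Glis2 KO libraries. Igf1, Igfbp4 and Igfbp7 dip with the fibroblast and endothelial markers in both libraries numbered 2, Igfbp5 is highest there, and Igf1r and Insr stay within a narrow band in CPM, where all KO libraries lie above all WT libraries, a separation not found in TPM.

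For the genes of the axis with the largest spread, the protein-coding genes with the most similar course over the 6 libraries were looked up among 11192 genes with a mean of at least 5 CPM. The measure was the root-mean-square (RMS) difference of mean-centred log2 CPM. Nearest to Igfbp7 were Arhgef15 (RMS 0.03), Esam (0.07) and Plxnd1 (0.11), of which Esam, an adhesion molecule of endothelial junctions, was on the endothelial marker list. Nearest to Igf1 were Prex2 (0.11), Coro2b (0.13) and Nrp1 (0.15), and nearest to Igfbp4 were Tbx2 (0.06), Begain (0.07) and Cavin2 (0.07). The SD of log2 CPM of the genes themselves was 0.80 for Igfbp7, 0.92 for Igf1 and 0.51 for Igfbp4. The differences were picked as the smallest among 11192 genes and were not tested. The similarity is over 6 libraries that share dissection and sorting, and it describes these libraries only.

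The rest of the pathway was taken from 4 lists, and 0 of their tested genes were called by edgeR or DESeq2. Among other ligands, binding proteins and proteases, 13 of 17 genes could be tested, 7 with a positive and 6 with a negative log2 fold change (median 0.16). Igf2, the second IGF ligand, had 59.3, 26.6 and 46.2 CPM in WT and 31.8, 23.1 and 29.2 CPM in Glis2 KO replicates 1 to 3. Its log2 fold change was -0.65 (SE 0.27), with an unadjusted p of 0.0406 and an adjusted p of 0.906 in edgeR. The lowest Igf2 value of each genotype was again replicate 2, and the genotypes overlapped. The genes of this list with the highest CPM, which is not scaled by transcript length, included Adamts1, a secreted metalloprotease, with 580.0 ± 196 CPM in WT and 409 ± 103 CPM in KO cells. The others were Igf2r, the receptor that clears IGF2 (328 ± 29.0 and 294 ± 18.9 CPM), and Stc2, an inhibitor of PAPP-A (195 ± 70.4 and 261 ± 90.0 CPM; SD, n = 3 each). Igfbp1, the hepatic binding protein, had 0 counts in every library, which allows up to 3 counts or 0.0957 to 0.120 CPM by counting error only. Ins1, Ins2 and Igfbpl1 were too low to be tested.

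Of the receptor adaptors and negative regulators, 23 of 24 were tested, 14 with a positive and 9 with a negative log2 fold change (median 0.10). Sh2b2, an adaptor of the insulin receptor, had 4.12, 2.27 and 3.72 CPM in WT and 5.99, 4.74 and 9.11 CPM in Glis2 KO replicates 1 to 3, without overlap (log2 fold change 0.97, SE 0.36, unadjusted p = 0.0261, adjusted p = 0.906 in edgeR). Socs2, a feedback inhibitor of growth hormone signalling, had 36.0, 32.4 and 36.6 CPM in WT and 22.8, 26.5 and 30.6 CPM in KO replicates 1 to 3, also without overlap (log2 fold change -0.39, SE 0.15, unadjusted p = 0.0289, adjusted p = 0.906 in edgeR). Neither held after adjustment. The scaffold Rack1 (514 ± 50.2 and 549 ± 47.6 CPM), the cytokine inhibitor Socs3 (422 ± 31.7 and 473 ± 13.1 CPM) and the phosphatase gene Ptpn1 (109 ± 24.2 and 123 ± 23.8 CPM in WT and KO cells; SD, n = 3 each) had the highest CPM of this list.

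All 35 genes of the PI3K, AKT and mTOR relay were tested, 21 with a positive and 14 with a negative log2 fold change (median 0.05), and 0 had an unadjusted p under 0.05. Genes of this list with high CPM had close means in both genotypes. Pik3r1, the regulatory subunit of PI3-kinase, had 287 ± 13.4 and 312 ± 23.9 CPM in WT and KO cells. Gsk3b, a kinase that AKT inhibits, had 179 ± 6.39 and 180.2 ± 7.51 CPM in WT and KO cells (SD, n = 3 each).

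FOXO target genes, which are held down when AKT is active, included 5 of 22 with an unadjusted p under 0.05 and a higher level in Glis2 KO cells. Among all genes tested, 2.99% met that rule in the same direction, and the list was chosen with earlier results of these data known. Fbxo32, a ubiquitin ligase subunit of muscle wasting, had 219, 172 and 117 CPM in WT and 306, 260.0 and 295 CPM in KO replicates 1 to 3. Its log2 fold change was 0.76 (SE 0.20, unadjusted p = 0.00500 in edgeR). Pdk4, a kinase that shuts off pyruvate dehydrogenase, had 67.3, 51.9 and 33.7 CPM in WT and 74.0, 104 and 108 CPM in KO replicates 1 to 3 (log2 fold change 0.91, SE 0.25, unadjusted p = 0.00597 in edgeR). Txnip, which restrains glucose uptake, had 388, 261 and 372 CPM in WT and 471, 628 and 479 CPM in KO replicates 1 to 3 (log2 fold change 0.63, SE 0.17, unadjusted p = 0.00608 in edgeR). Bcl2l11, a death-promoting BCL2 relative, had 61.7 ± 6.83 CPM in WT and 78.2 ± 9.29 CPM in KO cells (SD, n = 3 each; log2 fold change 0.34, unadjusted p = 0.0316 in edgeR). In these 4 genes the KO values all lay above the WT values, as in 6.23% of all genes tested. In Bcl6, a transcriptional repressor (25.98 ± 5.54 and 40.7 ± 13.6 CPM in WT and KO cells; SD, n = 3 each), the genotypes overlapped. The basal and lymphocyte marker sums given above separated the genotypes in the same direction, and their part in these values was not tested. The adjusted p of all 5 was 0.906 in edgeR, and the smallest by DESeq2 was 0.0914, so none passed. Without the filter on low counts, edgeR called Fbxo32 (adjusted p = 0.0401) and Pdk4 (adjusted p = 0.0377) among 40 genes in all. Over the 22 tested genes of the list, 16 log2 fold changes were positive and 6 negative, with a median of 0.16. Map1lc3b, an autophagy gene and the third of the list by CPM after Txnip and Fbxo32, had 128 ± 4.94 and 141 ± 16.7 CPM (SD, n = 3 each).

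**Figure D5:**
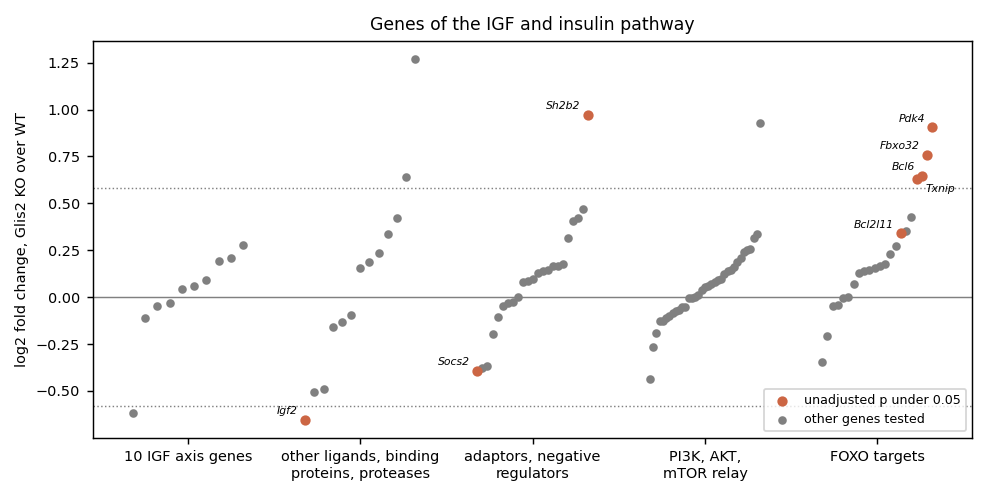
Log2 fold change of Glis2 KO over WT (vertical axis) for the 10 IGF axis genes and for the tested genes of 4 pathway lists, sorted within each list; red points have an unadjusted edgeR p under 0.05 and dotted lines mark the fold threshold of 0.58 on either side. The 10 genes lie near 0 apart from Igf1 at -0.62, and the 5 red points among the FOXO targets lie above 0.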

How the data were processed

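RNA was sequenced from sorted mammary epithelial cells of 3 WT and 3 Glis2 KO mice. Per the labels and the study's methods, a stranded total RNA kit was used and the authors obtained estimated counts per gene with Salmon 1.2.1 on an mm10 transcriptome, without normalization, deposited as whole numbers. The deposited TPM values are on a log2 scale with an offset of 1. Such estimates depend on how reads were shared between transcripts, and the genes described overlap only genes on the opposite strand. Symbols and positions came from a GRCm38 annotation, which matched 54166 of 54418 identifiers.

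The counts were tested with edgeR 4.0.16 (R 4.3.3; quasi-likelihood fit, filterByExpr, TMM, no covariate) over all genes, with Benjamini-Hochberg adjustment. Intervals use the degrees of freedom of that test. A call needed an adjusted p of 0.05 or less and a log2 fold change of 0.58 or more in size. Alternatives were DESeq2 1.42.0 with apeglm 1.24.0, DESeq2 size factors, other filters, log2 TPM in limma 3.58.1, a block for the replicate number and leaving out 1 mouse at a time, and, added after seeing the data, protein-coding TPM and leaving out both libraries numbered 2. The test was checked on simulated data. The genes and lists were chosen with earlier results of these data known. Named were the 10 genes, Glis2, pathway genes called or with an unadjusted p under 0.05, the 3 of each list with the highest mean CPM, and the 3 nearest genes of the 3 most variable members. Apart from a single gene of these lists, which is not reported here, all of them are given. No library was a copy of another (chi-square per degree of freedom at least 20.5). Deviations of WT and KO libraries with the same replicate number were little correlated (-0.02, 0.17 and 0.02). These values cannot show whether such mice were handled together.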

Additional observations from a re-analysis of the deposited data

How the results depend on the processing

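Under all 15 alternatives, 2 of them added after seeing the data, 0 of the 10 genes were called. The replicate block, fitted although no pairing by number is known, gave 0 genes of the axis and 0 pathway genes called. No paired value changed a call. Of the pathway genes, 2 were called without the filter on low counts, and 0 under the other alternatives. On log2(TPM + 1) and log2(TPM + 0.1) in limma, which moved the median of all genes to -0.06 and -0.14, the sign turned for Igf1r (-0.048 and -0.056), Insr (-0.14 and -0.18), Irs1 (-0.073 and -0.095), Igfbp3 (-0.085 and -0.093) and Igfbp5 (-0.14 and -0.14), and 0 of the 10 genes were without overlap on log2(TPM + 1). It also turned for Insr on protein-coding TPM (-0.025) and for Irs1 without both libraries numbered 2 (-0.084). With counts in place of TPM, the log2 ratio of Insr to Igf1r differed by 0.018 between the genotypes, in the other direction than with TPM. Leaving out 1 mouse at a time turned the sign of Irs1 (-0.11 to 0.26), Irs2 (-0.15 to 0.10), Igfbp2 (-0.26 to 0.24), Igfbp3 (-0.08 to 0.17), Igfbp5 (-0.12 to 0.17), Igfbp7 (-0.56 to 0.26), the ratio of Insr to Igf1r (-0.54 to 0.18) and the ratio of Irs2 to Irs1 (-0.36 to 0.013), and kept that of Igf1 (-1.04 to -0.27), Igf1r (0.15 to 0.23), Insr (0.14 to 0.24) and Igfbp4 (0.01 to 0.62). The cause was not tested. The log2 fold changes of the receptors lay under the fold threshold of 0.58, so a call did not depend on their p alone.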
